A study of Homo sapiens with 12 samples.

Results

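The genes described here are 57 genes of mitosis and the kinetochore, taken by name from the deposited table of 36601 genes. Each had to average at least 10 normalized counts over the 12 libraries, and 57 of the 57 named genes did, among 15376 genes that passed the same filter. They are grouped here by role into mitotic entry kinases and cyclins (7), the spindle assembly checkpoint (5), the outer kinetochore (5), centromere proteins (6), the chromosomal passenger complex (4), mitotic kinesins (9), spindle and cytokinesis factors (8), anaphase and cohesion control (5), chromosome structure (6) and transcription factors (2). RNA was sequenced from KP4, a human pancreatic ductal carcinoma cell line that the labels list as WT, after 24 h in one of 4 treatments with 3 libraries each. The groups were DMSO (the vehicle), Met (10 mM metformin), FK (5 nM FK866) and Met+FK (10 mM metformin with 5 nM FK866), and the cells of every group were otherwise grown in the same medium with serum. Metformin is a biguanide that blocks respiratory complex I in mitochondria, and FK866 inhibits NAMPT, the rate-limiting enzyme of NAD salvage from nicotinamide. A single line at a single time point was profiled, and the labels do not say whether replicates were separate cultures, so p-values measure the spread between these libraries, which may be technical.

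In mitosis, CDK1 bound to B-type cyclins starts chromosome condensation and spindle assembly, the kinetochore built on each centromere attaches chromosomes to spindle microtubules, and the checkpoint kinases hold back anaphase until every kinetochore is attached. The anaphase-promoting complex with CDC20 then degrades securin and cyclin B, separase cuts cohesin, and the central spindle directs cytokinesis. In cycling cells most of these genes are transcribed in G2 and M by the MuvB complex with B-MYB (MYBL2) and FOXM1, which acts through CHR elements near the start site and CCAAT boxes bound by NF-Y, while the DREAM complex represses the same promoters in non-dividing cells. In RNA from a whole culture, fewer cells in G2 and M and less RNA per cell in those phases cannot be told apart.

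Because the genes moved together, the letters of their promoters are shown first. RefSeq promoter windows of GRCh38.p14, from 250 bases before to 50 bases after each listed start, were matched for 49 of the 57 genes and for 10829 of the genes tested. The CHR letters searched were TTTGAA and TTCGAA on both strands, and the CCAAT box was searched as CCAAT on both strands. On the other strand a box thus reads ATTGG and a CHR TTCAAA or TTCGAA. No other spelling of the CHR was searched, so a gene without these letters may still hold a CHR element. The windows below run 5′ to 3′ from 90 bases before the start to 30 bases from it on, with matches in capitals. They show a CHR with CCAAT boxes ahead of it (PLK1, CCNB2, SPC25), a CHR that shares its last A with an ATTGG in the letters TTTGAATTGG (CDCA8, MKI67), a gene with CHR letters at the second of its listed starts (CDK1), and the gene that fell most with metformin, which has an ATTGG and no CHR letters here (KIF20A).
PLK1 (chr16:23678799-23678918, + strand): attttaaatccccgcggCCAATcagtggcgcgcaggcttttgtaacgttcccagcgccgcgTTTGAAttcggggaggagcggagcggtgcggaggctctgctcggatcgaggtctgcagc
CCNB2 (chr15:59105056-59105175, + strand): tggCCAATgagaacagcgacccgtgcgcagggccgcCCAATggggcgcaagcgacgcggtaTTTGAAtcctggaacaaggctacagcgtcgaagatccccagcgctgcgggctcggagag
SPC25 (chr2:168890401-168890520, - strand): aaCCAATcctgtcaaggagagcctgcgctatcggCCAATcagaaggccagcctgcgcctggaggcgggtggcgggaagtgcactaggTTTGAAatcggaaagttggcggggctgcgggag
CDCA8 (chr1:37692426-37692545, + strand): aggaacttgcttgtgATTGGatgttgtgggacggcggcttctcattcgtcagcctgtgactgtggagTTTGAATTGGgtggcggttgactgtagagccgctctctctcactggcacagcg
MKI67 (chr10:128126394-128126513, - strand): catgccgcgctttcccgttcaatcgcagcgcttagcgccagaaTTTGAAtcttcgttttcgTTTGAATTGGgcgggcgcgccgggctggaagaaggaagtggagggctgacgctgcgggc
CDK1 (chr10:60778388-60778507, + strand): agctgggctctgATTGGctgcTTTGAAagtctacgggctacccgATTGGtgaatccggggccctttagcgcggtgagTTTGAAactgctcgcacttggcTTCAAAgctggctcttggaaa
KIF20A (chr5:138179022-138179141, + strand): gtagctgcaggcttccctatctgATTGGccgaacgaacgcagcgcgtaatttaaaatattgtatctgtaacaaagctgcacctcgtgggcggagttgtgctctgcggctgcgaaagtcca

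CHR letters lay within 50 bases of a listed start in 31 of the 49 genes (63.3%), against 524 of 10829 genes tested (4.84%) and 0 of 33 matched DNA replication genes. Over the whole window they were present in 36 of the 49 (73.5%) against 15.6% of genes tested. CCAAT was found in 37 of the 49 (75.5%) against 42.9%, and CCAAT together with CHR letters near the start in 24 of the 49 against 2.22% of genes tested. In the plot of match positions, most CCAAT matches lie upstream of the CHR matches, which gather around the start. The median log2 fold change of Met against DMSO was -0.69 (range -1.33 to -0.17) in the 31 genes with CHR letters near the start and -0.89 (range -1.57 to -0.32) in the 18 without. The 18 may hold CHR elements in other spellings, which were not searched, so this is not a split by presence of a CHR element. These are descriptions of letters, and nothing follows from them about binding.

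**Figure D1:**
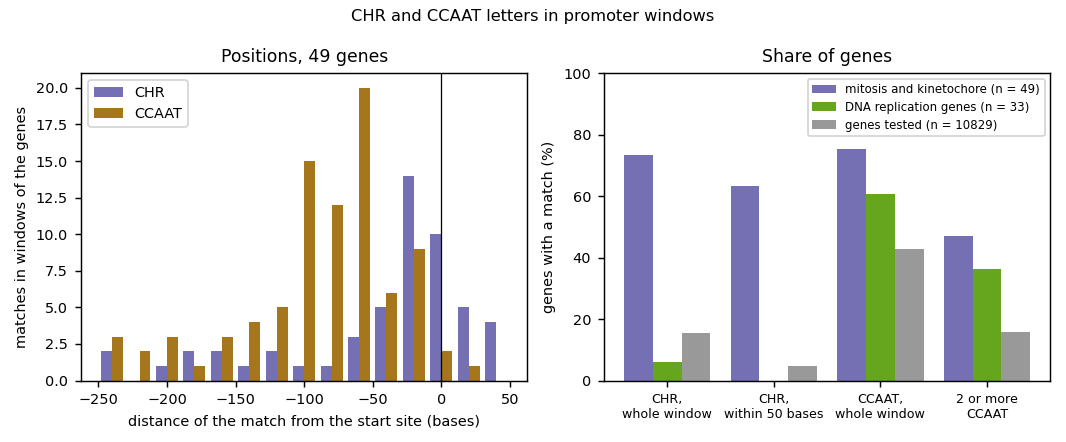
Left, number of CHR (TTTGAA or TTCGAA) and CCAAT matches in windows of the 49 matched genes, by distance from the start site in bases, with 0 at the start. Right, percentage of genes with a match in the mitosis and kinetochore genes, the DNA replication genes and all genes tested; CHR letters within 50 bases of the start are in 63.3%, 0.0% and 4.84% of them.

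The 12 libraries held 30667735 to 41052203 read pairs assigned to genes. Of 8 epithelial and ductal markers, KRT18 (9398 to 18721 normalized counts), KRT8 and SOX9 were the highest in every library. KRT7 (209.0 to 314.1), MUC1 (66.1 to 157.3) and CDH1 (24.2 to 86.5) were lower. KRT19 stayed between 14.6 and 75.0 and EPCAM between 3.8 and 12.5, while the mesenchymal gene VIM reached 93661 to 121917. Of 5 leukocyte markers 2 averaged at least 10, PTPRC (CD45) at 101.4 to 304.3 and CD68 at 720.9 to 1009.8, while CD3E was at or near 0 in every library. The 5 summed to 1101 to 1243 in DMSO, 917.1 to 977.2 in Met, 950.4 to 1034 in FK and 957.9 to 1004 in Met+FK. Of 4 endothelial markers 1 did, VWF at 12.5 to 43.3, while KDR was at 0, and the 4 summed to 42.4 to 56.3, 21.9 to 35.5, 46.2 to 53.9 and 28.1 to 39.0. Both sums were lower in every library with metformin than in every DMSO library. The leukocyte sum was lower than in every DMSO library in every FK library too, while the endothelial sum in FK overlapped DMSO. The part of both sums in the results was not tested. The libraries differed in how their levels followed the GC content of transcripts: the slope ran from 0.043 to 0.20 log2 units per 10 percentage points of GC in DMSO, from -0.14 to 0.080 in Met, from -0.25 to 0.0027 in FK and from -0.048 to 0.063 in Met+FK. The mitosis and kinetochore genes are poorer in GC than most (median 41.9% against 48.5% for all genes tested), so values are also given below with each library's trend on GC content and transcript length removed. The lowest slope belonged to FK replicate 2.

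Mitosis and kinetochore genes were lower with metformin, most of them past the threshold and none in the other direction. Of all read pairs, the 57 genes together took 0.849, 0.948 and 0.852% in the DMSO libraries, 0.518, 0.528 and 0.496% in Met, 0.877, 0.998 and 0.881% in FK, and 0.496, 0.49 and 0.509% in Met+FK. Every library with metformin lay below every library without it. Between Met and DMSO, 42 of the 57 genes fell by the criterion of an adjusted p under 0.05 (limma-trend on log2(normalized count + 1)) with a fold change over 1.5, where 10.2% of all genes tested fell, and 0 rose, where 12.8% of all genes did. By adjusted p alone 43 were lower (25.9% of all genes), the added gene being CENPI, and the libraries of Met and DMSO did not overlap for 43 (29.4% of all genes). The median log2 fold change over the 57 was -0.70 against 0.013 over all genes tested, and 57 of 57 values were negative, from -1.57 (KIF20A) to -0.17 (SMC2). With libraries scaled to the same total, which moves the median of all genes to 0.13, 28 genes passed and 57 values remained negative. By that scaling 1025 of the 15376 genes tested were lower by the same criterion. With the GC and length trend removed, 53 of 57 passed (10.0% of all genes with a GC value) and 57 of 57 were lower by adjusted p alone (32.5%).

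**Figure D2:**
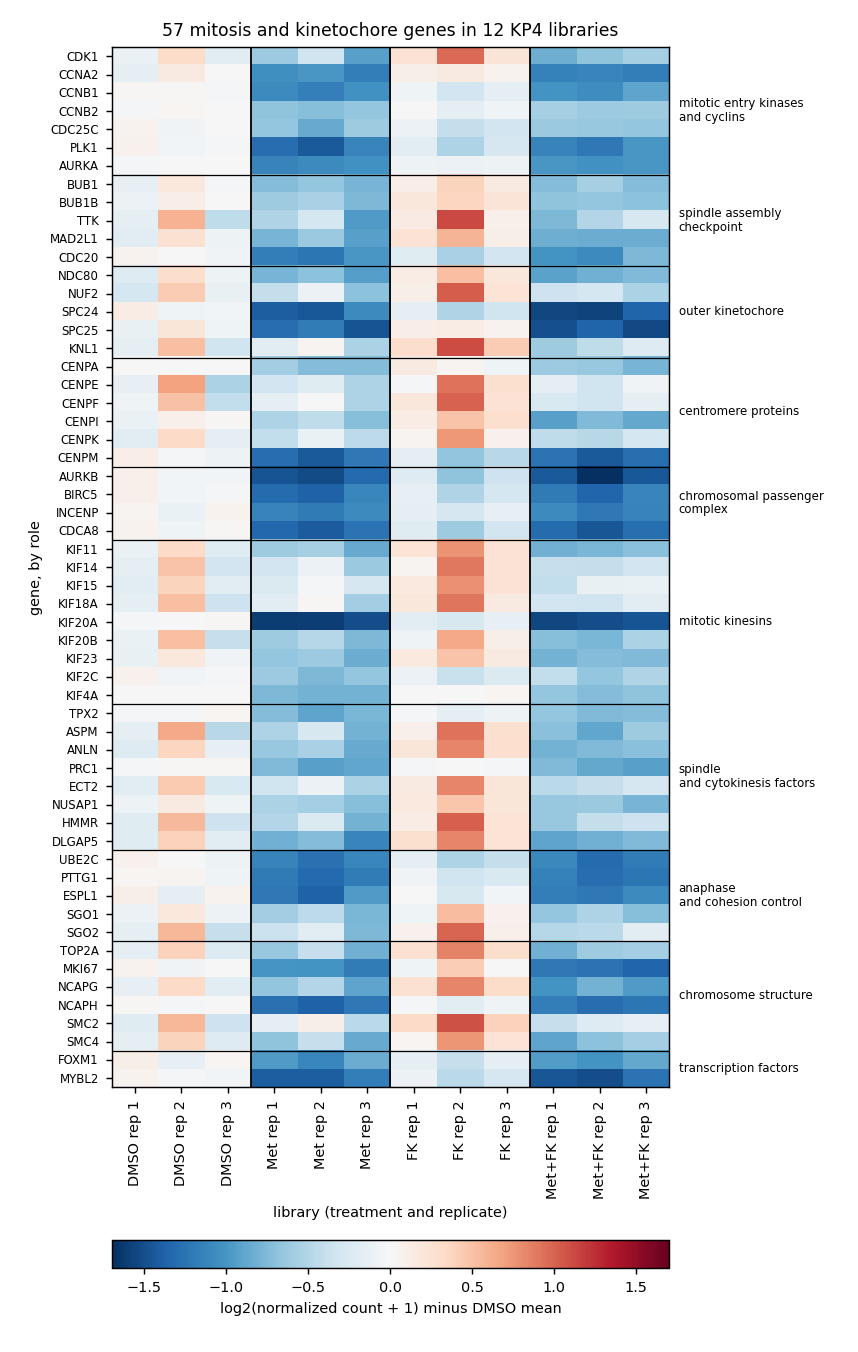
Difference of log2(normalized count + 1) from the DMSO mean for each of the 57 genes (rows, by role) in each of the 12 libraries (columns, by treatment and replicate), blue for lower and red for higher. Nearly all cells of the 6 libraries with metformin are blue, and FK replicate 2 holds the deepest red.

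All 7 mitotic entry kinases and cyclins fell with metformin. CDK1 (chr10:60778331-60794852 in GRCh38, the kinase that drives entry into mitosis) was at 2825, 3825 and 2675 normalized counts in DMSO, 1992, 2427 and 1619 in Met, 3649.9, 5987 and 3578 in FK and 1723, 1905 and 2075 in Met+FK. The Met libraries all lay below the DMSO libraries and the FK libraries spread widely, with replicate 2 far above the others. CDK1 fell by 0.63 ± 0.19 (SE) on the log2 scale (adjusted p = 0.012) in Met against DMSO, a call lost without DMSO replicate 2 or without Met replicate 3 (adjusted p = 0.056 in each case). CCNB1 (chr5:69167135-69178245), the cyclin B1 partner of CDK1, was at 17156, 17172 and 16489.8 normalized counts in DMSO, 8031, 7575 and 8277 in Met, 16115, 13562 and 15221 in FK and 8366, 8151 and 9126 in Met+FK. No Met library of CCNB1 came near a DMSO library, and it fell by 1.09 ± 0.074 (SE) on the log2 scale (adjusted p = 5.46e-08). PLK1 (chr16:23677656-23690367), the polo-like kinase needed for centrosome maturation and a bipolar spindle, was at 7382, 6804 and 6886 normalized counts in DMSO, 2869, 2597 and 3231 in Met, 6116, 4860.5 and 5762 in FK and 3189, 3024 and 3520.0 in Met+FK. No Met library reached any DMSO library, and PLK1 fell by 1.28 ± 0.098 (SE) on the log2 scale (adjusted p = 1.53e-07), the largest fall of the group. AURKA (chr20:56369389-56392337), the Aurora kinase of spindle poles, was at 6888, 6996 and 6977 normalized counts in DMSO, 3150.2, 3273 and 3406 in Met, 6556, 6490.1 and 6568 in FK and 3496, 3403 and 3489.8 in Met+FK. Its replicates were tight in every treatment, and it fell by 1.09 ± 0.06 (SE) on the log2 scale (adjusted p = 7.78e-09). The cyclins CCNA2 and CCNB2 and the CDK1-activating phosphatase CDC25C fell by 1.07, 0.69 and 0.71 on the log2 scale.

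Of the 5 checkpoint genes, 4 fell. CDC20 (chr1:43358981-43363203), the activator of the anaphase-promoting complex that the checkpoint restrains, was at 14509.8, 13818 and 13299 normalized counts in DMSO, 6111, 5901 and 6969 in Met, 12007, 9486 and 11016 in FK and 6845, 6555 and 8182 in Met+FK. Its Met libraries lay far below its DMSO libraries, and it fell by 1.14 ± 0.10 (SE) on the log2 scale (adjusted p = 5.33e-07). TTK (chr6:80003887-80042527), the MPS1 kinase at the top of the checkpoint, was at 984, 1651 and 812 normalized counts in DMSO, 770.3, 895 and 562 in Met, 1207, 2382 and 1159 in FK and 647, 778 and 912 in Met+FK. Here the groups overlapped, since Met replicate 2 was above DMSO replicate 3, and the log2 difference of -0.59 ± 0.28 (SE, adjusted p = 0.087) did not pass. It passed with the GC and length trend removed (-0.87, adjusted p = 1.68e-04). The checkpoint kinases BUB1 and BUB1B fell by 0.73 and 0.64, and MAD2L1, the MAD2 protein that inhibits CDC20, by 0.78 on the log2 scale.

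In the outer kinetochore, 3 of 5 genes fell, among them both SPC24 and SPC25, which anchor the NDC80 complex. SPC25 (chr2:168834132-168913371) was at 812, 1026 and 842 normalized counts in DMSO, 362, 389 and 321 in Met, 959, 969 and 929.8 in FK and 314, 347 and 306 in Met+FK. All 6 libraries with metformin lay below all 6 without it, and SPC25 fell by 1.32 ± 0.11 (SE) on the log2 scale (adjusted p = 2.23e-07). SPC24 fell by 1.31 and NDC80 by 0.81 on the log2 scale, while their partner NUF2 had a log2 difference of -0.40 ± 0.22 (SE, adjusted p = 0.15), which did not pass. KNL1 (chr15:40594020-40664342), the scaffold that recruits the BUB kinases, was at 1249.8, 1994 and 1110.0 normalized counts in DMSO, 1226, 1450.4 and 969 in Met, 1731, 3028 and 1892 in FK and 919.9, 1039 and 1204 in Met+FK. DMSO replicate 2 and FK replicate 2 were the high libraries of their groups, Met and DMSO overlapped, and the log2 difference of -0.23 ± 0.22 (SE, adjusted p = 0.41) did not pass, with a 95% confidence interval of -0.70 to 0.25. With the GC and length trend removed KNL1 was lower by 0.62 (adjusted p = 8.37e-05).

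Among 6 centromere proteins 2 fell. CENPM (chr22:41938737-41947152), a member of the constitutive centromere network, was at 1564, 1411 and 1356 normalized counts in DMSO, 586, 537 and 621 in Met, 1301, 906 and 1043 in FK and 603, 534 and 593 in Met+FK. All Met libraries were far below all DMSO libraries. CENPM fell by 1.31 ± 0.12 (SE) on the log2 scale (adjusted p = 6.53e-07), and CENPA, the histone H3 variant that marks the centromere, fell by 0.69. CENPI (chrX:101098218-101163681), of the same network, was at 1558, 1791 and 1717 normalized counts in DMSO, 1175, 1252 and 1018 in Met, 1837, 2369 and 2059 in FK and 891, 998 and 921 in Met+FK. Its Met libraries lay below its DMSO libraries without overlap, but the difference of -0.56 ± 0.10 (SE, adjusted p = 4.80e-04) was short of 1.5-fold. CENPF (chr1:214603195-214664571), a large protein of the fibrous corona that accumulates in G2, was at 4635, 6940.2 and 3648 normalized counts in DMSO, 4380.3, 4932 and 3395 in Met, 5582, 9856 and 5813 in FK and 4099.6, 3877 and 4363 in Met+FK. Its Met and DMSO libraries overlapped, and the difference of -0.23 ± 0.22 (SE, adjusted p = 0.41) did not pass. The motor CENPE and the network subunit CENPK had differences of -0.36 and -0.32, neither past the threshold.

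The chromosomal passenger complex, the Aurora B assembly that corrects faulty attachments and later guides cytokinesis, fell in all 4 subunits. AURKB (chr17:8204733-8210600), its kinase, was at 4059.9, 3720.4 and 3712 normalized counts in DMSO, 1383, 1332 and 1537 in Met, 3292, 2391 and 2989 in FK and 1417, 1181 and 1409 in Met+FK. The libraries with metformin held well under all those without it, and AURKB fell by 1.44 ± 0.11 (SE) on the log2 scale (adjusted p = 1.63e-07). INCENP (chr11:62123998-62153169), the scaffold that binds and activates the kinase, was at 4614, 4139 and 4646 normalized counts in DMSO, 2034, 1941 and 2099 in Met, 4011, 3659.9 and 4039.5 in FK and 2106, 1922 and 2027 in Met+FK. It showed the least change of the 4 subunits with metformin and fell by 1.14 ± 0.075 (SE) on the log2 scale (adjusted p = 4.15e-08). CDCA8 (chr1:37692481-37709719), the subunit borealin, was at 6021, 5516 and 5851 normalized counts in DMSO, 2298, 2173 and 2425 in Met, 5039, 3822 and 4603 in FK and 2348, 2105 and 2378 in Met+FK. It fell by 1.33 ± 0.095 (SE) on the log2 scale (adjusted p = 8.10e-08), and survivin (BIRC5) by 1.26. For all 4 subunits the FK libraries also lay below the DMSO libraries without overlap, as they did for 18 of the 57 genes (21.6% of all genes).

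Of the 9 mitotic kinesins, 6 fell. KIF20A (chr5:138178719-138187723), the kinesin that carries Aurora B to the central spindle, was at 8458, 8627 and 8734 normalized counts in DMSO, 2814, 2836 and 3021 in Met, 7619.7, 7134 and 7837 in FK and 2932, 3015 and 3119 in Met+FK. The 3 replicates of each group sat close together, and KIF20A fell by 1.57 ± 0.065 (SE) on the log2 scale (adjusted p = 4.75e-10), the greatest fall among the 57 genes. KIF15 (chr3:44761721-44873376), a motor that helps keep the spindle bipolar, was at 720.1, 1066 and 727 normalized counts in DMSO, 695, 809.8 and 674 in Met, 926, 1410.2 and 979 in FK and 616, 751 and 762 in Met+FK. Met and DMSO overlapped and the difference of -0.19 ± 0.17 (SE, adjusted p = 0.37) did not pass. KIF11, the main motor of spindle bipolarity, fell by 0.68, KIF23 of the central spindle by 0.70, KIF20B by 0.62, the microtubule depolymerase KIF2C by 0.68 and the chromokinesin KIF4A by 0.79. KIF4A has a near-identical intronless copy, KIF4B, and PTTG1 has one in PTTG2, so reads of these genes are uncertain. KIF14 and KIF18A had differences of -0.35 and -0.25 that did not pass.

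Among 8 spindle and cytokinesis factors 5 fell. DLGAP5 (chr14:55148112-55191608), which stabilizes microtubules near chromosomes, was at 1947, 2955 and 1991 normalized counts in DMSO, 1277, 1346 and 1039 in Met, 2716, 4013 and 2644 in FK and 1207, 1281 and 1337 in Met+FK. Its Met libraries all lay below its DMSO libraries and it fell by 0.89 ± 0.17 (SE) on the log2 scale (adjusted p = 5.05e-04). PRC1, which bundles the central spindle, fell by 0.85, TPX2, the activator of Aurora A, by 0.80, the contractile ring scaffold ANLN by 0.69 and NUSAP1 by 0.61. ECT2 (chr3:172750682-172821474), the exchange factor that turns on RHOA for cytokinesis, was at 4348, 6672 and 4099 normalized counts in DMSO, 3899.6, 4596 and 3379.5 in Met, 5447, 8764 and 5649 in FK and 3581, 3764 and 4036 in Met+FK. Met replicate 2 was above DMSO replicates 1 and 3, and the difference of -0.32 ± 0.19 (SE, adjusted p = 0.16) did not pass. The spindle pole protein ASPM (-0.53) and HMMR (-0.52) did not pass either.

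Of 5 genes for anaphase and cohesion, 4 fell. PTTG1 (chr5:160421855-160428739), securin, was at 7137, 7220.0 and 6611 normalized counts in DMSO, 3044, 2792 and 3063 in Met, 6672, 5527 and 5851 in FK and 3149.5, 2857 and 2987 in Met+FK. It fell by 1.24 ± 0.08 (SE) on the log2 scale (adjusted p = 3.52e-08), and every Met library was apart from every DMSO library. UBE2C (chr20:45812576-45816957), the ubiquitin-conjugating enzyme of the anaphase-promoting complex, was at 9881, 9460.5 and 8892 normalized counts in DMSO, 4261, 3908 and 4352 in Met, 8383, 6537 and 7072 in FK and 4415, 3782 and 4142 in Met+FK. It fell by 1.17 ± 0.092 (SE) on the log2 scale (adjusted p = 1.81e-07), while separase (ESPL1) fell by 1.18 and shugoshin SGO1 by 0.61. SGO2 (chr2:200510008-200584096), the second shugoshin, was at 665, 1100.5 and 568 normalized counts in DMSO, 578, 655 and 437 in Met, 782, 1481 and 796 in FK and 532, 543 and 658 in Met+FK. Its DMSO and Met libraries overlapped and the difference of -0.44 ± 0.25 (SE, adjusted p = 0.15) did not pass.

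Of 6 chromosome structure genes, 5 fell. MKI67 (chr10:128096659-128126423), the Ki-67 protein that coats mitotic chromosomes and marks proliferating cells, was at 25742, 23608 and 24716 normalized counts in DMSO, 12305, 12183 and 10845 in Met, 23456, 32878 and 24861 in FK and 10676, 10382 and 9681 in Met+FK. The libraries with metformin all held under those without, and MKI67 fell by 1.07 ± 0.10 (SE) on the log2 scale (adjusted p = 1.25e-06). TOP2A (chr17:40388525-40417896), the topoisomerase that untangles sister chromatids, was at 10719, 15785 and 10283 normalized counts in DMSO, 7680.0, 9167 and 6808 in Met, 14396, 21524 and 14850.4 in FK and 6847, 7882 and 8087 in Met+FK. It fell by 0.62 ± 0.17 (SE) on the log2 scale (adjusted p = 0.0065), with DMSO replicate 2 the highest DMSO library. NCAPH (chr2:96335766-96377091), the kleisin subunit of condensin I, was at 4888, 4722 and 4811 normalized counts in DMSO, 1992, 1856 and 2064 in Met, 4701, 4209 and 4572 in FK and 2124, 1964 and 2060.5 in Met+FK. It fell by 1.29 ± 0.071 (SE) on the log2 scale (adjusted p = 7.78e-09), NCAPG by 0.69 and SMC4 by 0.64. SMC2 (chr9:104094260-104141419), the other ATPase of both condensins, was at 1606, 2725 and 1441 normalized counts in DMSO, 1658, 1986 and 1349 in Met, 2305, 3932 and 2431 in FK and 1414, 1587 and 1680.0 in Met+FK. Its Met and DMSO libraries overlapped and its difference of -0.17 ± 0.22 (SE, adjusted p = 0.55) had a 95% confidence interval of -0.65 to 0.31.

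Both transcription factors of the program fell. FOXM1 (chr12:2857681-2877155) was at 26311, 22216 and 24998 normalized counts in DMSO, 12587, 11331 and 13602 in Met, 21979, 18659.8 and 21908 in FK and 12644, 12073 and 13436 in Met+FK. MYBL2 (chr20:43667019-43716495), B-MYB, was at 6406, 6091 and 5984 normalized counts in DMSO, 2323, 2324 and 2714 in Met, 5762, 4474 and 5047 in FK and 2248, 2157 and 2583 in Met+FK. In both genes every library with metformin was below every library without it. FOXM1 fell by 0.97 ± 0.089 (SE) on the log2 scale (adjusted p = 7.74e-07) and MYBL2 by 1.33 ± 0.099 (SE) on the log2 scale (adjusted p = 1.22e-07).

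**Figure D3:**
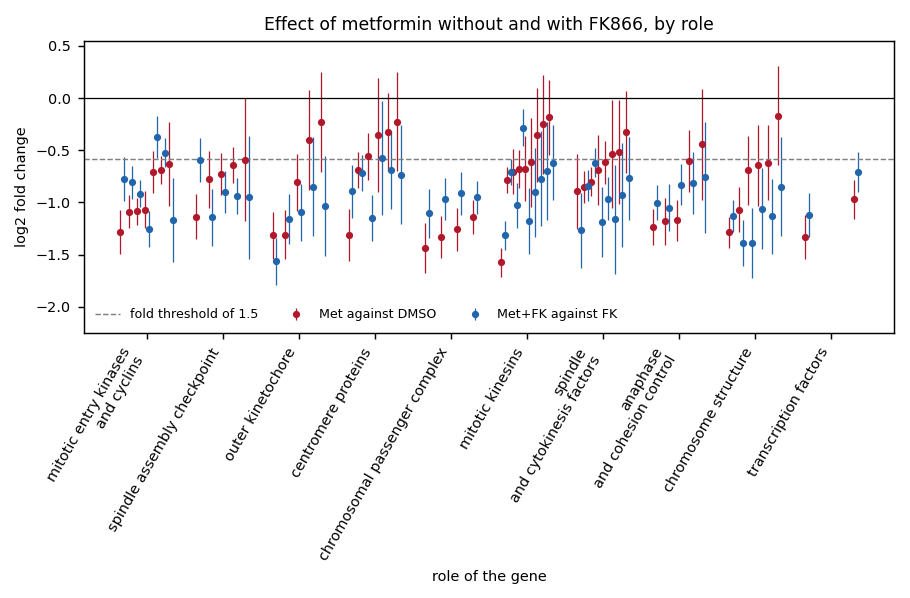
Log2 fold change of Met against DMSO (red) and of Met+FK against FK (blue) for each of the 57 genes by role, with 95% confidence intervals from limma-trend; the dashed line marks a 1.5-fold fall. Every point is below 0, and the red intervals that cross 0 belong to genes such as KNL1, CENPF, KIF15 and SMC2.

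The level of these genes per kilobase of transcript, on the scale of normalized counts per kb, spanned from 93.1 for CENPE to 12110.0 for UBE2C in DMSO. The 14 genes whose Met and DMSO libraries overlapped were TTK, NUF2, KNL1, CENPE, CENPF, CENPK, KIF14, KIF15, KIF18A, ASPM, ECT2, HMMR, SGO2 and SMC2, and these are the 14 that did not pass by adjusted p. All are under the median GC content of the genes tested. Of the 44 genes under that median, 29 fell with metformin (median log2 fold change -0.66), and of the 13 at or over it 13 fell (median -1.26). All genes tested were not split in this way, so whether this difference is particular to the 57 genes was not tested. Across the 57 genes Pearson's r between GC content and the log2 fold change of Met against DMSO was -0.75, and -0.42 once the GC and length trend of each library was removed, a description over genes of the same libraries. The trend-removed values kept 57 of 57 negative, from -1.58 (KIF20A) to -0.45 (KIF15), with a median of -0.94.

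**Figure D4:**
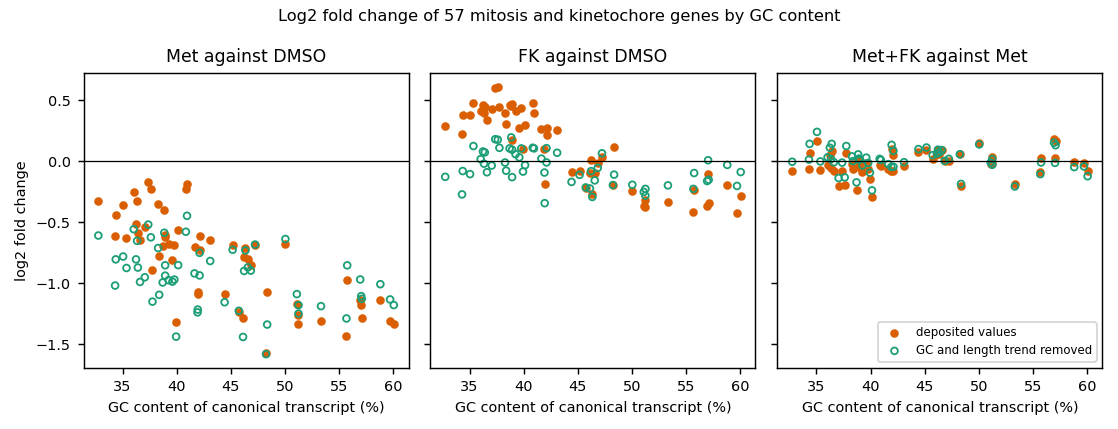
Log2 fold change of the 57 genes against the GC content of their canonical transcript (%), for Met against DMSO, FK against DMSO and Met+FK against Met, from the deposited values (filled) and with each library's GC and length trend removed (open). In the FK panel the filled points run from 0.61 at low GC to -0.43 at high GC, and the open points lie between -0.34 and 0.20.

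Related genes from lists fixed by name were compared between Met and DMSO in the same way. Of 31 other kinetochore and centromere genes, 9 fell and 0 rose (median log2 fold change -0.45), with ZWINT, which links the kinetochore to dynein, at -1.14 ± 0.066 (SE, adjusted p = 1.23e-08). Of 31 other G2/M regulators 18 fell and 0 rose (median -0.62), with CCNF, cyclin F, at -1.49 (adjusted p = 6.73e-08). Of 17 genes listed with the anaphase-promoting complex 2 fell, FBXO5 (-0.93) and UBE2S (-0.81), and 0 rose (median -0.25). By adjusted p alone 10 of these were lower and 2 higher, where 3989 and 3834 of the 15376 genes tested were. Of 16 cohesin and other condensin genes 5 fell and 1 rose (median 0.053), and of 12 MuvB and DREAM components 1 fell (TFDP1) and 0 rose (median 0.028). DNA replication genes, which are expressed in S phase, had a lower median than the mitotic genes: 35 of 39 fell and 0 rose (median -1.1), with RRM2, the ribonucleotide reductase subunit, at -1.71 ± 0.057 (SE, adjusted p = 4.22e-11). CDKN1A, which encodes the CDK inhibitor p21, had a log2 difference of 0.16 ± 0.077 (SE, adjusted p = 0.091) in Met, 0.33 ± 0.077 (SE, adjusted p = 0.021) in FK and 0.30 ± 0.077 (SE, adjusted p = 0.0049) in Met+FK, each against DMSO. These lists were chosen with earlier results known, and their counts are to be read against the 10.2% of all genes that fell.

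FK866 alone gave no called change: 0 of 57 genes were higher and 0 lower than in DMSO by the full criterion, where 2.73% and 0.754% of all genes were. Unadjusted p was under 0.05 for 33 of the 57, 17 higher and 16 lower, against 42.2% of all genes. On adjusted p only, edgeR counted 11 (19.7% of all genes) and DESeq2 21 (26.9%), higher and lower together. By adjusted p alone in the limma-trend fit, 10 genes were lower (9.84% of all genes) and 2 higher (11.3%). The 10 were AURKB, BIRC5, CDC20, CDC25C, CDCA8, CENPM, KIF20A, PLK1, SPC24 and UBE2C, with the lowest value, -0.43 ± 0.12 (SE), in CENPM, and the 2 were BUB1B and NCAPG. The values of AURKB (-0.42 ± 0.11 (SE, adjusted p = 0.027)), CDCA8 (-0.38 ± 0.095 (SE, adjusted p = 0.024)) and UBE2C (-0.37 ± 0.092 (SE, adjusted p = 0.023)) had the smallest adjusted p. Their FK libraries all lay below their DMSO libraries, FK replicate 2 lowest of all. Neither these 3 nor PLK1, CDC20, CENPM and KIF20A passed without DMSO replicate 1, without DMSO replicate 3 or without FK replicate 2, with adjusted p from 0.054 to 0.2. At the other end KNL1 and SMC2 had differences of 0.61 ± 0.22 (SE, adjusted p = 0.059) and 0.60 ± 0.22 (SE, adjusted p = 0.063), with FK replicate 2 the highest library in each.

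The direction of the FK866 values followed GC content. All 13 genes at or over the median GC had negative values, while 35 of the 44 under it had positive ones, and r across the 57 genes was -0.87, or -0.45 with the GC and length trend removed. The same split was not made over all genes tested, so whether this pattern is particular to the 57 genes was not tested. With the trend removed the median moved from 0.22 to -0.079, the values ran from -0.34 (CCNB1) to 0.20 (NUF2), and 10 genes were lower (6.83% of all genes with a GC value) and 0 higher by adjusted p alone: AURKA, AURKB, BIRC5, CCNB1, CDC25C, CDCA8, KIF20A, NCAPH, PTTG1 and UBE2C. The libraries of the same replicate number deviated together in DMSO and FK, and a fit blocked on replicate number called 2 genes, KNL1 and SMC2, higher by the full criterion (3.51% of all genes). The blocked fit by adjusted p alone had 23 genes higher (23.3% of all genes), among them CDK1, TOP2A, KNL1, NDC80 and BUB1, and 16 lower (21.3%), so that more members were higher than lower, the reverse of the balance without the block. With the GC and length trend removed together with the block, 0 were higher (7.66%) and 17 lower (12.8%) by adjusted p alone, among them AURKA, AURKB, PLK1, CCNB1 and UBE2C. Both counts by adjusted p alone under the block were chosen after seeing the data. Without DMSO replicate 2, which had the highest levels of these genes among the DMSO libraries (median log2 difference from the DMSO mean 0.16), 17 genes were higher (6.93% of all genes), among them CDK1, TOP2A, KNL1 and CENPF. Between FK replicate 2 and the DMSO mean the median log2 difference was 0.41, and -0.019 with the GC and length trend removed. The part of GC content in these values beyond this was not tested.

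Metformin also lowered these genes in the presence of FK866. Met+FK against FK had 53 of 57 genes lower (9.29% of all genes) and 0 higher (9.27%), with a median log2 fold change of -0.93 and 57 of 57 values negative, from -1.56 (SPC25) to -0.28 (KIF2C). For 57 of the 57 genes all Met+FK libraries lay below all FK libraries (26.0% of all genes). By adjusted p alone 56 were lower, where 3329 of the 15376 genes tested were. The exception was CENPE (-0.57 ± 0.26 (SE, adjusted p = 0.086)), and CCNB2, CDC25C and KIF2C were short of 1.5-fold. The genes whose Met and DMSO libraries overlapped were here apart: KNL1 fell by 1.04 ± 0.22 (SE) on the log2 scale (adjusted p = 0.0017), SMC2 by 0.85 ± 0.22 (SE) on the log2 scale (adjusted p = 0.0068) and ECT2 by 0.77 ± 0.19 (SE) on the log2 scale (adjusted p = 0.0038). CENPF fell by 0.73 ± 0.22 (SE) on the log2 scale (adjusted p = 0.015), TTK by 0.95 ± 0.28 (SE) on the log2 scale (adjusted p = 0.012) and SGO2 by 0.76 ± 0.25 (SE) on the log2 scale (adjusted p = 0.024), and these rest on single libraries. CENPF and SGO2 did not pass without FK replicate 2 (adjusted p = 0.051 and 0.091), TTK and SGO2 did not without Met+FK replicate 1 (0.055 and 0.076), and SGO2 did not without Met+FK replicate 2 (0.07). NCAPG fell by 1.39 ± 0.16 (SE) on the log2 scale (adjusted p = 5.78e-06) and MKI67 by 1.39 ± 0.10 (SE) on the log2 scale (adjusted p = 1.06e-07). Across the 57 genes r with GC content was 0.085 in this comparison.

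No difference between the combination and metformin alone passed the full criterion. In Met+FK against Met 0 genes were higher (0.052% of all genes) and 0 lower (0.0065%), edgeR and DESeq2 called 0 each by adjusted p, and 1 gene, CENPI, had an unadjusted p under 0.05, where 6.84% of all genes did. By adjusted p alone with the GC and length trend removed together with the replicate block, an alternative chosen after seeing the data, CENPI and NCAPG were lower (2 of 57, 1.38% of all genes). Differences ran from -0.29 (CENPI, 95% confidence interval -0.51 to -0.067, adjusted p = 0.56) to 0.18 (CDC20, -0.031 to 0.40), with MKI67 at -0.20. The Met+FK libraries of CENPI and MKI67 all lay below the Met libraries, and those of CCNB2 and KIF4A all lay above, 2 of the 57 genes each way, where 5.56% of all genes lay below and 7.88% above. Against DMSO, Met+FK had 43 genes lower (11.3% of all genes) and 0 higher (13.7%), a median of -0.75 and 57 of 57 negative values, from -1.52 (AURKB) to -0.19 (CENPE). Both comparisons with DMSO share its libraries. ASPM and CENPI passed in this one and not in Met against DMSO, and KIF2C the reverse. The difference between the 2 comparisons is the contrast of Met+FK with Met, which called neither.

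The interaction asks whether the effect of metformin differed with and without FK866, as log2 (Met+FK against FK) minus log2 (Met against DMSO). By adjusted p, 0 genes were above 0 (0.0065% of all genes) and 0 below (0.052%). Unadjusted p was under 0.05 for 10 above and 11 below (30.5% of all genes in both directions together), edgeR called 0 and DESeq2 5 (5.67% of all genes), CDC20, KIF2C and PLK1 above and CENPI and NCAPG below. The smallest adjusted p belonged to CENPI (-0.59 ± 0.15 (SE, adjusted p = 0.11)), PLK1 (0.50 ± 0.14 (SE, adjusted p = 0.11)) and CDC20 (0.54 ± 0.14 (SE, adjusted p = 0.11)). In the fit blocked on replicate number, 12 genes lay above (15.5% of all genes) and 14 below (16.5%) of the 57. The 12 were AURKB, BIRC5, CCNB1, CDC20, CDC25C, CDCA8, CENPM, FOXM1, KIF20A, KIF2C, PLK1 and UBE2C, and the 14 included CDK1, CENPI, KNL1, NCAPG, SMC2 and TOP2A. With the GC and length trend removed together with the block, 13 lay above (4.81%) and 1, NCAPG, below (2.16%). Without FK replicate 1, 9 lay above (6.37%) and 2 below (5.63%). Across the 57 genes r between GC content and the interaction was 0.82, and 0.27 with the trend removed.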

How the data were processed

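Total RNA was sequenced as read pairs after ribosomal RNA depletion. Per the study's methods, cutadapt trimmed the reads, STAR placed them on hg38 and featureCounts counted genes. The authors deposited these counts divided by DESeq2 size factors, a normalized signal per gene. The annotation and strand setting are not given in the sources used here. Deposited starts count from 0 and were made 1-based. Each library's step gave back whole read pairs for 100.0% of values (tolerance 0.01 read pairs).

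The 15376 genes averaging 10 or more were fitted with limma-trend 3.58.1 (R 4.3.3) on log2(normalized count + 1), which understates changes of low genes, over all 12 libraries, with Benjamini-Hochberg adjustment. A call needed an adjusted p under 0.05 and a fold change over 1.5 (adjusted p alone for the interaction). Alternatives were edgeR 4.0.16 (quasi-likelihood), which made its calls on the recovered read pairs as DESeq2 1.42.0 did, other pseudocounts, filters and scalings, a loess trend on GC content and log transcript length removed from each library (span 0.3), a replicate block, and libraries left out. Same-numbered libraries deviated together across genes in DMSO and FK (r = 0.25, 0.42 and 0.22) and in Met and Met+FK (0.17, 0.20 and 0.23). They did not in each pair of DMSO and Met (0.013, 0.33 and 0.25) or, among others, of DMSO and Met+FK (0.051, 0.16 and 0.019). With the GC and length trend removed, r was 0.14, 0.17 and 0.13 in DMSO and FK, and 0.16, 0.096 and 0.074 in Met and Met+FK. This pairing was read from the values, since no label gives it. In simulated counts for Met against DMSO over 15376 genes, 167 of 200 genes changed 2-fold were recovered, with 2 false calls. The simulated libraries were independent and had no GC slope and no pairing by replicate number. The false calls therefore do not carry over to these data.

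Values in every library are given for CDK1, CCNB1, PLK1, AURKA, MKI67, TOP2A, FOXM1 and MYBL2, for the genes with the lowest and highest log2 fold change of Met against DMSO in each role, and for the 3 with the smallest adjusted p for FK against DMSO, Met+FK against Met and the interaction. Other members appear by count, range or log2 fold change, and from other lists only such extremes and CDKN1A. Members and lists were chosen with earlier results of these data known.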

Additional observations from a re-analysis of the deposited data

Results flagged for a closer look

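CENPI was set apart because its FK866 effect had opposite directions with and without metformin: every FK library lay above every DMSO library, and every Met+FK library lay below every Met library. The difference between these effects was -0.59 ± 0.15 (SE) on the log2 scale, with an adjusted p of 0.11 in the limma-trend fit, which did not pass. With the replicate number as a block the adjusted p was 0.0047, in a fit where 15.5% of all genes lay above 0 and 16.5% below by adjusted p. With the GC and length trend removed the difference was -0.21 (adjusted p = 0.21). CENPI was not among the genes called with the trend removed together with the block.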

How the results depend on the processing

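No alternative turned the direction of a result called by the full criterion. For Met against DMSO, leaving out 1 library gave 32 to 45 genes lower. Without DMSO replicate 2, 32 were lower, where 1632 of the 15376 genes tested were. Without Met replicate 3, 34 were lower, where 1792 of all genes were. With every library in the fit 42 were lower, where 1566 of all genes were. The range was 35 to 44 for Met+FK against DMSO, where 1610 to 1883 of all genes were lower. It was 45 to 53 for Met+FK against FK, where 1332 to 1461 of all genes were lower. For FK against DMSO 0 genes passed, and 2 were higher with the replicate block. By adjusted p alone 2 were higher and 10 lower, and 10 were lower with the GC and length trend removed. By adjusted p alone with the replicate block 23 were higher and 16 lower, and 17 were lower with the block and the trend removed. Without DMSO replicate 2, 17 were higher, where 1065 of the 15376 genes tested were. Without FK replicate 1, 3 were higher, where 955 of all genes were. Without replicate 2 of every treatment 2 were higher, where 256 of all genes were. This last alternative was added after seeing the data, as were the trend removal and the block with adjusted p alone. By adjusted p alone more genes were thus lower than higher without the block. With the block more were higher than lower on the deposited values, and more were lower than higher once the trend was removed. With the block, the trend removed and adjusted p alone, 2 genes were lower in Met+FK against Met. For FK against DMSO, leaving out 1 library gave 0 to 17 genes higher and 0 lower. For the interaction, 12 genes were above 0 and 14 below with the replicate block, 13 and 1 with the block and the trend removed, 3 and 2 by DESeq2, and 9 and 2 without FK replicate 1. Without replicate 2 of every treatment 0 were above and 1 below, where 3 and 41 of the 15376 genes tested were. Leaving out 1 library ranged from 0 to 9 above and 0 to 2 below. The replicate block changed no count of Met against DMSO, Met+FK against DMSO or Met+FK against FK by over 1.5 times. Except where the trend or fewer libraries were the alternative itself, the cause of these shifts was not tested. With 3 libraries a group, the spread between libraries sets the precision of every contrast.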
